A study of Homo sapiens with 12 samples.

Results

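PTGS2 and 9 other genes that make, sense or remove prostaglandin E2 were followed in head and neck squamous cell carcinoma cells selected for resistance to inhibitors of the ERBB receptors. The 10 genes, PTGS2, PTGS1, PTGES, PTGES2, PTGES3, PTGER2, PTGER4, HPGD, PLA2G4A and SLCO2A1, were matched by symbol among the 58051 genes of the count files, and each was found. They were chosen on a measured value: PTGS2 had the largest rise in erlotinib-resistant FaDu cells among the 135 named genes that were higher there at an adjusted p under 0.05, with a log2 fold change above 1, no overlap with the parental libraries and an average of 5 CPM or more over the 4 libraries compared. CPM relates a count to the total on genes in its library, normalized between libraries by TMM, on 1 scale over all 12 libraries.

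Prostaglandin E2 is a lipid signal made on demand from arachidonic acid, which a cytosolic phospholipase cuts from membranes. Cyclooxygenases turn arachidonic acid into prostaglandin H2, and terminal synthases turn that into prostaglandin E2, which leaves the cell and acts on receptors coupled to cyclic AMP. A transporter and a dehydrogenase then take it up and destroy it. In epithelial tumors the inducible cyclooxygenase PTGS2 (COX-2) is known as a target of growth factor and inflammatory signals.

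FaDu is a cell line from a squamous carcinoma of the hypopharynx and Cal27 one from the tongue. Each was compared as untreated parental cells, as AfaR cells grown resistant to afatinib, which blocks EGFR and other ERBB family members, and as ErlR cells grown resistant to erlotinib, which blocks EGFR. There were 6 groups of 2 libraries labelled as biological replicates. Each resistant model was 1 population raised by stepwise increase of the drug, by the study's methods, and was kept without the drug for a day before use. Depth lay between 16334937 and 23399259 counts on genes. The FaDu parental and AfaR libraries had 20156109 or more and every other library 16689855 or fewer. ERCC spike-in RNAs made up 5.641% to 5.824% of counts in the deeper libraries and 3.859% to 4.6% in the others. FaDu ErlR and FaDu parental cells fall on different sides of this split, whose part in the results was not tested. All 8 squamous markers were at 1 CPM or more in both libraries of 5 groups and 7 of 8 in Cal27 AfaR, where their summed level was 887.9 to 992.9 CPM, against 3857 to 4834 in Cal27 parental cells. In the same Cal27 AfaR libraries the 6 fibroblast markers summed to 300.7 to 309.1 CPM, against 28.16 to 40.01 in parental cells. COL1A1 made up most of that sum, 2 of the 6 besides it reached 1 CPM in both libraries, and the fibroblast receptor PDGFRA stood at 0.0533 and 0 CPM. Its part in the results on Cal27 AfaR was not tested.

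The promoter of PTGS2 is shown with those of the 3 other genes on which the results turn, as the 250 bases before the start of transcription. The sequences are those of the RefSeq promoter table used here, on GRCh38.p14, with an entry for each gene but SLCO2A1. They are written 5′ to 3′ on the strand of the gene, and capitals mark a match, on either strand, to 1 of 6 motifs. These were the TATA box, read as TATAAA, the CGTCA core of a cyclic AMP response element, and the GC box, read as GGGCGG. The binding sites of AP-1, C/EBP proteins and E-box factors were read as TGANTCA for the first, as TTNNGCAAT for the second and as CACGTG for the third.

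PTGS2, chr1:186680424-186680673, minus strand: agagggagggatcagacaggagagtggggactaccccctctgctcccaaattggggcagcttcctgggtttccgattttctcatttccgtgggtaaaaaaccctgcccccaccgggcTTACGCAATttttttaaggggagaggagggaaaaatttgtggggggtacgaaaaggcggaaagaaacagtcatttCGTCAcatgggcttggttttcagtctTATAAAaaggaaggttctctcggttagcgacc
PLA2G4A, chr1:186828699-186828948, plus strand: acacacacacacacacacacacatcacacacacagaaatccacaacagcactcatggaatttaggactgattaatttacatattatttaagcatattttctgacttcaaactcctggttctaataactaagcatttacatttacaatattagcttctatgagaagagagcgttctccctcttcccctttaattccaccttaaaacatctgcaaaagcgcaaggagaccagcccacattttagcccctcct
PTGES, chr9:129753043-129753292, minus strand: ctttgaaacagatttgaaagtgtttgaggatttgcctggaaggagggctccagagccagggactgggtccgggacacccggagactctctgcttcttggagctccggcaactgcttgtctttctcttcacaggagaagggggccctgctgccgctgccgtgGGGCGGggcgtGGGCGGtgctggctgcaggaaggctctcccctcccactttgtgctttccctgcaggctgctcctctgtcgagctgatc
PTGER4, chr5:40679665-40679914, plus strand: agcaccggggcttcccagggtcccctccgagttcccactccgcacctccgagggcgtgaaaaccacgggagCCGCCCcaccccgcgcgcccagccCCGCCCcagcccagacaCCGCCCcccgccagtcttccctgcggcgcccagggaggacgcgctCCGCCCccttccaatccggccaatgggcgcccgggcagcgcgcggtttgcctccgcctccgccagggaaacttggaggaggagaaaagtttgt

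The 4 promoters differed in these letters. PTGS2 held a TATA box 32 bases, a CGTCA 58 bases and a C/EBP match 133 bases before its start, and PTGES held 2 GC boxes and PTGER4 4 of them. PLA2G4A, which lies 149 kb from PTGS2 on chromosome 1, held none of the 6 motifs. GC content ran from 38.8% in PLA2G4A through 50.4% in PTGS2 and 61.2% in PTGES to 72.8% in PTGER4. Of 35116 promoter windows of this length, 10.7% held a TATAAA, 21.2% a CGTCA, 6.57% an AP-1 match, 2.04% the C/EBP letters, 42.6% a GC box and 6.34% an E-box. A match is a description of letters only.

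Levels of the 10 genes are first set side by side per length, as TPM, in the parental cells. PTGES3, also known as the HSP90 co-chaperone p23, was the highest of the 10 in both lines, at 1003 ± 21.6 TPM in FaDu and 715.5 ± 83.1 in Cal27 (SD, n = 2). Of the cyclooxygenases, PTGS1 stood at 23.8 ± 5.95 TPM in FaDu parental cells and PTGS2 at 0.929 ± 0.423. In Cal27 parental cells PTGS1 stood at 18.7 ± 1.10 TPM and PTGS2 at 6.90 ± 4.66. The breakdown and uptake genes were lowest, with HPGD at 0.231 ± 0.193 TPM and SLCO2A1 at 0.0865 ± 0.0756 in FaDu parental cells. In this pair of untreated lines the constitutive cyclooxygenase was thus the more abundant transcript per length.

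**Figure D1:**
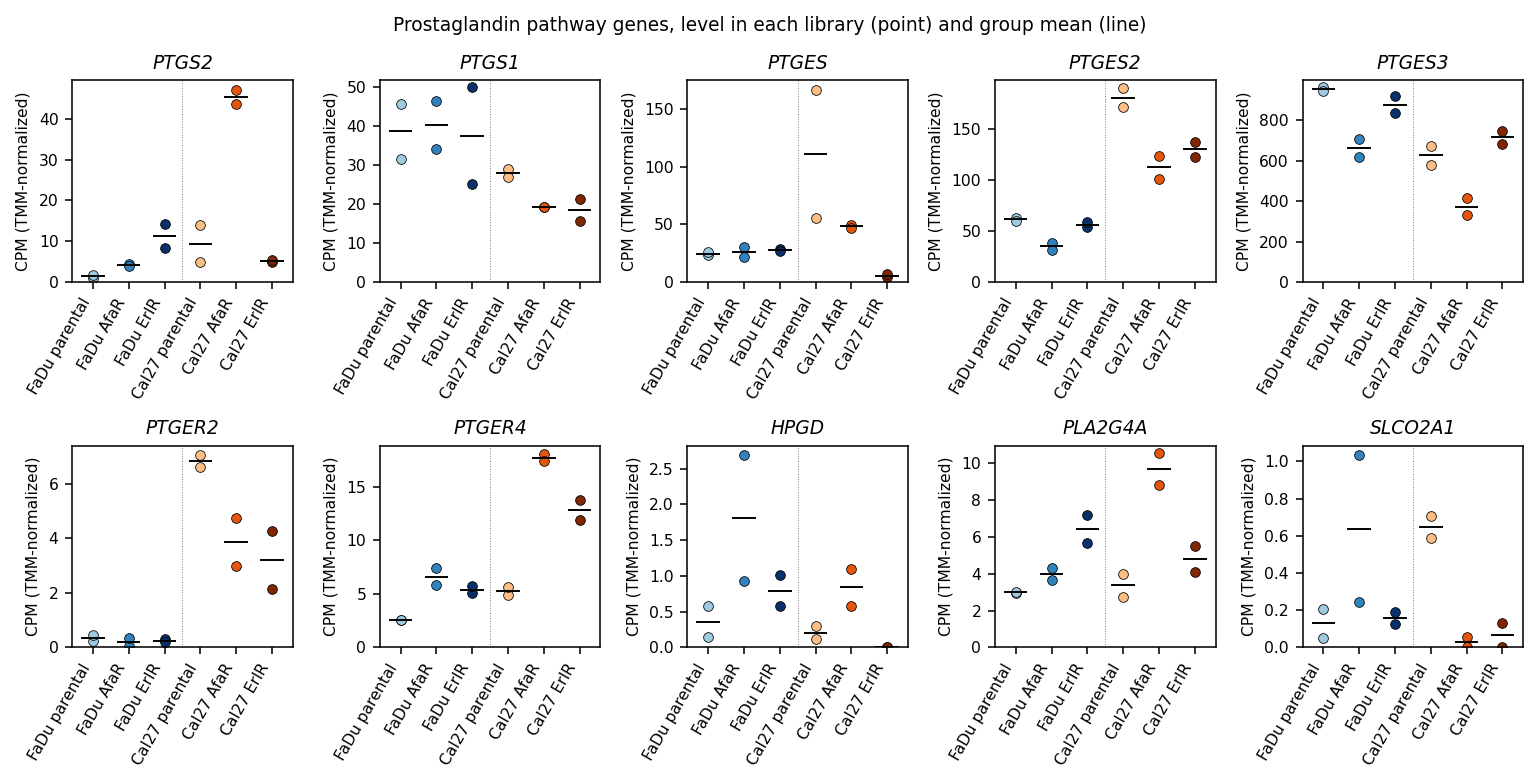
Level of each of the 10 genes in CPM (vertical axis, from 0, its own scale per gene) in each library (points) of the 6 groups (horizontal axis), with the group mean as a line. PTGS2 was at 43.7 and 47.1 CPM in Cal27 AfaR and no higher than 14.2 CPM in every other library, and PTGES fell to 4.21 and 7.17 CPM in Cal27 ErlR.

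PTGS2 (ENSG00000073756, chromosome 1, 186671791 to 186680427 on GRCh38, minus strand) was at 0.928 and 1.83 CPM in FaDu parental cells. It was at 4.32 and 3.93 CPM in FaDu AfaR and at 8.41 and 14.2 CPM in FaDu ErlR. In Cal27 it was at 4.87 and 13.9 CPM in parental cells, 43.7 and 47.1 in AfaR and 4.86 and 5.47 in ErlR. The order of the group means, from the lowest, was FaDu parental, FaDu AfaR, Cal27 ErlR, Cal27 parental, FaDu ErlR and Cal27 AfaR. Cal27 parental cells overlapped both of their neighbours in that order, and the other neighbours did not overlap. The level in FaDu parental cells rested on 19 and 35 counts. In bulk RNA, more expressing cells and more RNA per cell cannot be told apart.

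The FaDu ErlR values chose the genes, so they are a description without a test. PTGS2 stood 3.05 ± 0.385 (log2 ± SE) above parental cells, a fold of 8.30, and the next in that ranking were CDYL2 at 3.04 and ANTXR2 at 2.98. Among genes of any level, 36 had a larger log2 fold change. Leaving out 1 library at a time gave 2.62 to 3.61. FaDu AfaR was compared with the same parental libraries and PTGS2 stood 1.57 ± 0.387 above them, a fold of 2.96, also given without a test.

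Cal27 libraries took no part in the choice. PTGS2 rose by 2.30 ± 0.371 (log2) in Cal27 AfaR, a fold of 4.91 (edgeR's quasi-likelihood test, Benjamini-Hochberg adjusted p = 0.00136). Both AfaR libraries lay above both parental libraries, although the parental libraries themselves stood far apart. The rise passed in all 12 other settings, with log2 fold changes from 1.73 without parental replicate 1 to 3.25 without parental replicate 2. In Cal27 ErlR, PTGS2 lay 0.88 ± 0.397 below parental cells and did not pass (edgeR adjusted p = 0.128). That value turned on the parental libraries: it was 0.08 (edgeR adjusted p = 0.872) without replicate 2 and -1.43 (edgeR adjusted p = 0.000613) without replicate 1. Compared directly, Cal27 ErlR was lower than Cal27 AfaR by a log2 fold change of -3.18 ± 0.394, a fold of 9.06 (edgeR adjusted p = 0.000204), with no overlap between the groups.

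PACERR, a noncoding RNA read from the opposite strand beside the PTGS2 start, had 0 to 2 counts in each of the 12 libraries. The strand setting of the counting is not given in the sources used here.

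PTGS1, the constitutive cyclooxygenase COX-1 (chromosome 9, 122370530 to 122395703), was at 31.6 and 45.7 CPM in FaDu parental cells, 34.0 and 46.4 in AfaR and 25.1 and 50.0 in ErlR. In Cal27 it was at 29.0 and 27.0 CPM in parental cells, 19.4 and 19.3 in AfaR and 15.8 and 21.2 in ErlR. The FaDu groups overlapped, and both Cal27 resistant groups lay below parental cells. PTGS1 fell in Cal27 ErlR by 0.62 ± 0.182 on the log2 scale (edgeR adjusted p = 0.0329). In Cal27 AfaR the log2 fold change was -0.51 ± 0.181 and did not pass (edgeR adjusted p = 0.0519). The ErlR call was lost in a fit over 12 libraries (-0.59, edgeR adjusted p = 0.147). It was lost too without Cal27 parental replicate 1 (edgeR adjusted p = 0.107), parental replicate 2 (0.0784) or ErlR replicate 1 (0.203).

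Set against PTGS1 per length, PTGS2 made up 3.12% and 4.21% of the summed TPM of the 2 cyclooxygenases in FaDu parental cells. The share was 12.3% and 8.51% in FaDu AfaR and 27.0% and 23.7% in FaDu ErlR. In Cal27 it was 15.6% and 36.2% in parental cells, 71.2% and 72.9% in AfaR and 25.3% and 22.1% in ErlR. Cal27 AfaR was the one group of the 6 in which PTGS2 was the larger of the pair in both libraries. The share in Cal27 ErlR lay within the range of its parental libraries.

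**Figure D2:**
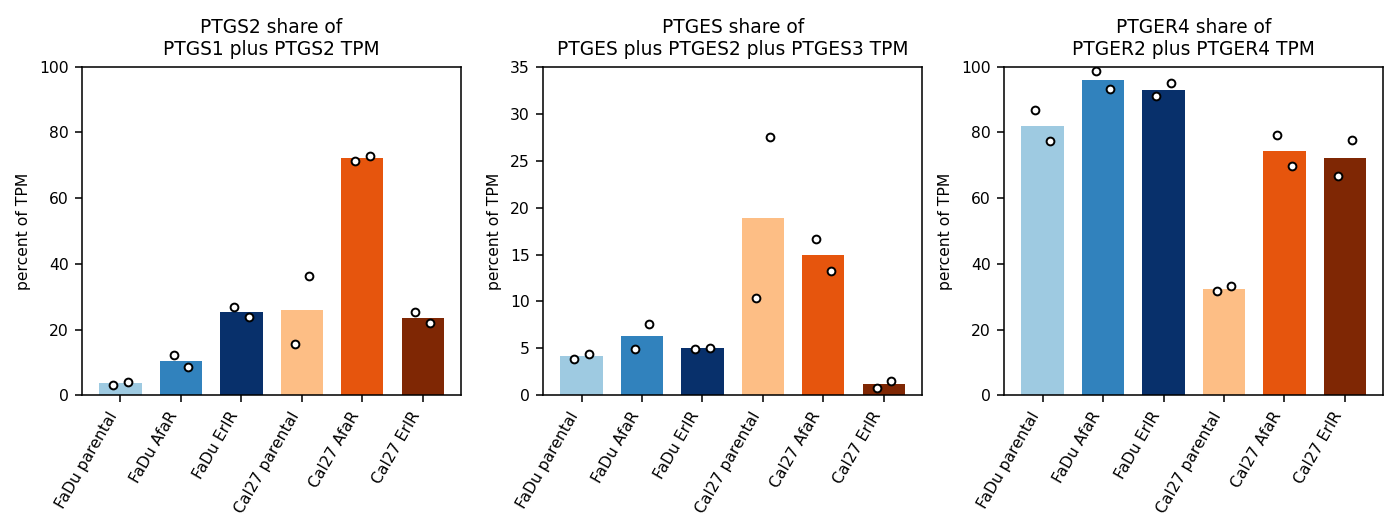
Percent of summed TPM held by PTGS2 among the 2 cyclooxygenases (left), by PTGES among the 3 prostaglandin E synthases (middle, axis to 35%) and by PTGER4 among the 2 receptors (right), with bars for group means and points for libraries. PTGS2 held 71.2% and 72.9% in Cal27 AfaR, PTGES at most 1.54% in Cal27 ErlR, and PTGER4 31.7% and 33.3% in Cal27 parental cells against 66.8% to 79.1% in the Cal27 resistant groups.

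PLA2G4A encodes cytosolic phospholipase A2 alpha, which releases arachidonic acid, and is the nearest gene tested on one side of PTGS2 (chromosome 1, 186828953 to 186988981). It was at 2.98 and 3.03 CPM in FaDu parental cells, 4.32 and 3.68 in AfaR and 7.21 and 5.65 in ErlR. Cal27 libraries gave 3.99 and 2.76 CPM in parental cells, 8.84 and 10.6 in AfaR and 4.08 and 5.53 in ErlR. All 4 resistant groups lay above their parental libraries. The rise in Cal27 AfaR was 1.55 ± 0.291 on the log2 scale, a fold of 2.92 (edgeR adjusted p = 0.00299), and it passed in all 12 other settings. FaDu AfaR (0.40 ± 0.271, edgeR adjusted p = 0.328) and Cal27 ErlR (0.49 ± 0.298, edgeR adjusted p = 0.247) did not pass. FaDu ErlR, described without a test, stood 1.11 ± 0.271 above parental cells. Cal27 ErlR was lower than Cal27 AfaR by a log2 fold change of -1.05 ± 0.284 (edgeR adjusted p = 0.0123), a call lost without AfaR replicate 2 (edgeR adjusted p = 0.0714) or ErlR replicate 1 (0.0736).

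PTGES, the inducible microsomal prostaglandin E synthase, fell in Cal27 ErlR (chromosome 9, 129738331 to 129753047). It was at 55.8 and 167 CPM in Cal27 parental cells, 49.9 and 47.1 in AfaR and 4.21 and 7.17 in ErlR. In Cal27 ErlR it fell by 4.31 ± 0.490 on the log2 scale, a fold of 19.8 (edgeR adjusted p = 0.00048). Both ErlR libraries lay far below every other library of the 12, and the fall passed in all 12 other settings, at -3.29 without Cal27 parental replicate 2. The fall of 1.18 ± 0.412 on the log2 scale in Cal27 AfaR (edgeR adjusted p = 0.0486) rested on that one parental library. Without it the log2 fold change was -0.17 (edgeR adjusted p = 0.619), and the call was lost without either AfaR library (edgeR adjusted p = 0.184 and 0.193), under upper-quartile scaling (0.0634) and with DESeq2 (adjusted p = 0.178). Cal27 ErlR was lower than Cal27 AfaR by a log2 fold change of -3.13 ± 0.477 (edgeR adjusted p = 0.000648).

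In FaDu the PTGES levels of the 3 groups lay close together. It was at 23.3 and 26.2 CPM in parental cells, 22.0 and 30.1 in AfaR and 28.5 and 27.0 in ErlR. The log2 fold change was 0.06 ± 0.166 in FaDu AfaR (edgeR adjusted p = 0.837) and 0.18 ± 0.168 in FaDu ErlR, the latter without a test. Among the 3 prostaglandin E synthases, PTGES held from 3.88% to 7.62% of the summed TPM in the 6 FaDu libraries. In Cal27 its share was 10.4% and 27.5% in parental cells, 16.7% and 13.3% in AfaR and 0.832% and 1.54% in ErlR.

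PTGES2, a membrane-associated synthase, and PTGES3, the cytosolic one, both fell in the AfaR models of both lines. PTGES2 (chromosome 9, 128120693 to 128128462) was at 63.1 and 59.2 CPM in FaDu parental cells, 38.0 and 31.7 in AfaR and 53.5 and 59.0 in ErlR. In Cal27 it was at 171 and 189 CPM in parental cells, 101 and 124 in AfaR and 137 and 123 in ErlR. No resistant library of either line reached its lowest parental library. The log2 fold change was -0.83 ± 0.134 in FaDu AfaR (edgeR adjusted p = 0.00675), -0.66 ± 0.139 in Cal27 AfaR (edgeR adjusted p = 0.00544) and -0.50 ± 0.139 in Cal27 ErlR (edgeR adjusted p = 0.027). The FaDu AfaR call was lost without FaDu parental replicate 1 (-0.79, edgeR adjusted p = 0.0647). The Cal27 AfaR call was lost without AfaR replicate 1 (-0.53, edgeR adjusted p = 0.0523), and the Cal27 ErlR call without any one of its 4 libraries (-0.56 to -0.40, edgeR adjusted p from 0.0541 to 0.183).

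PTGES3 (chromosome 12, 56663341 to 56688408) was at 968 and 948 CPM in FaDu parental cells, 708 and 619 in AfaR and 920 and 838 in ErlR. Cal27 libraries gave 675 and 579 CPM in parental cells, 334 and 414 in AfaR and 748 and 685 in ErlR. The AfaR libraries of each line lay below those of the other 2 groups. In Cal27 AfaR it fell by 0.72 ± 0.15 on the log2 scale (edgeR adjusted p = 0.00498) and passed in all 12 other settings. In FaDu AfaR it fell by 0.55 ± 0.111 (edgeR adjusted p = 0.014), a call lost under scaling to the ERCC spike-in RNAs (-0.37, edgeR adjusted p = 0.135). That call was also lost without FaDu parental replicate 1 (edgeR adjusted p = 0.119), parental replicate 2 (0.0743) or AfaR replicate 2 (0.0529). Cal27 ErlR was at 0.17 ± 0.149 against parental cells (edgeR adjusted p = 0.42) and higher than Cal27 AfaR by 0.89 ± 0.15 (edgeR adjusted p = 0.00111).

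PTGER4, the EP4 receptor, was the one gene of the 10 that stood above parental cells without overlap in all 4 resistant models and passed in each of the 3 tested (chromosome 5, 40679498 to 40693735). It was at 2.54 and 2.56 CPM in FaDu parental cells, 5.83 and 7.40 in AfaR and 5.06 and 5.71 in ErlR. The Cal27 levels were 4.93 and 5.64 CPM in parental cells, 18.1 and 17.4 in AfaR and 13.8 and 11.9 in ErlR. In log2 units it rose by 1.36 ± 0.261 in FaDu AfaR (edgeR adjusted p = 0.0116), by 1.77 ± 0.198 in Cal27 AfaR (edgeR adjusted p = 0.000173) and by 1.26 ± 0.199 in Cal27 ErlR (edgeR adjusted p = 0.00212). Both Cal27 calls held in all 12 other settings. The FaDu AfaR call was lost without FaDu parental replicate 1 (1.34, edgeR adjusted p = 0.0897), parental replicate 2 (1.36, 0.0539) or AfaR replicate 2 (1.18, 0.0636). FaDu ErlR stood 1.09 ± 0.266 above parental cells, without a test. Between the Cal27 models PTGER4 was lower in ErlR than in AfaR by a log2 fold change of -0.51 ± 0.187 (edgeR adjusted p = 0.0458), a call that held in 2 of 12 other settings and in none that left out a library (edgeR adjusted p from 0.0758 to 0.212).

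PTGER2, the EP2 receptor (chromosome 14, 52314305 to 52328606), was nearly silent in FaDu, with 0.0486 to 0.470 CPM over the 6 libraries, and was left out of the FaDu fit as too low. In Cal27 it was at 6.63 and 7.05 CPM in parental cells, 2.98 and 4.73 in AfaR and 4.28 and 2.13 in ErlR. All 4 resistant libraries lay below both parental ones. The fall in Cal27 ErlR was 1.12 ± 0.369 on the log2 scale (edgeR adjusted p = 0.0486), and in Cal27 AfaR the log2 fold change of -0.80 ± 0.36 did not pass (edgeR adjusted p = 0.108). The ErlR call held in 5 of 12 other settings, with edgeR adjusted p up to 0.208 without ErlR replicate 2 (-0.68), 0.14 without parental replicate 2 and 0.0822 without parental replicate 1. Of the summed TPM of both receptors, PTGER4 held 31.7% and 33.3% in Cal27 parental cells, 79.1% and 69.6% in AfaR and 66.8% and 77.8% in ErlR. In FaDu it held 77.3% or more in every library.

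HPGD, the dehydrogenase that inactivates prostaglandin E2 (chromosome 4, 174490177 to 174523154), was low throughout. It had 3 and 11 counts in FaDu parental cells, 19 and 65 in AfaR and 16 and 9 in ErlR. In Cal27 it had 5 and 2 counts in parental cells, 11 and 19 in AfaR and 0 in both ErlR libraries. With 3 counts over the group set in place of 0, Cal27 ErlR was 8.83-fold lower than Cal27 AfaR and 2.18-fold lower than parental cells. The counts of the higher group were taken as exact, so these folds are no lower bounds. HPGD entered the Cal27 fit through the AfaR libraries alone, the group where it was high, so these are given without a test. In FaDu AfaR the log2 fold change of 2.31 ± 0.715 was short of the threshold (edgeR adjusted p = 0.0529). It passed there without the filter on low counts (edgeR adjusted p = 0.000262), under spike-in scaling (0.0243), without AfaR replicate 1 (0.0319) and with DESeq2 (adjusted p = 0.0485).

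SLCO2A1, the prostaglandin transporter (chromosome 3, 133932696 to 134052184), had few counts in every library. There were 12 and 10 counts in Cal27 parental cells, 0 and 1 in AfaR and 2 and 0 in ErlR. The count ratio of parental to AfaR was 23.3 (95% exact interval 3.77 to 962) and that of parental to ErlR 10.3 (2.53 to 90.4), intervals that cover counting error only. SLCO2A1 entered the Cal27 fit through the parental libraries alone, the group where it was high, so no test of these falls is given. In FaDu it had 1 and 4 counts in parental cells, 5 and 25 in AfaR and 2 and 3 in ErlR, too low for the FaDu fit.

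Counted together, the 10 genes moved in part with the background of each comparison. In FaDu AfaR, 8 genes were abundant enough and 7 were tested: 1 rose, 2 fell and 4 did not pass, where 10.4% of the 15092 genes tested rose and 7.49% fell. The 3 calls came down to 0 without FaDu parental replicate 1 and to 1 without parental replicate 2 or AfaR replicate 2. In FaDu ErlR, 5 of 8 lay above and 2 below both parental libraries, a description, where 25.4% and 28.9% of all genes did so. The 5 were PTGS2, PTGES, PTGER4, HPGD and PLA2G4A. The place of PTGS2 among them was fixed by the choice, which asked for no overlap with the parental libraries. In Cal27 AfaR, 3 of 10 rose, 4 fell and 3 did not pass, where 19.5% of 15269 genes rose and 18.2% fell. The 7 calls came down to 4 without AfaR replicate 1. In Cal27 ErlR, 1 rose, 5 fell and 4 did not pass, where 12.3% rose and 15.3% fell. The 6 calls came down to 2 without parental replicate 2, and to 3 without any one of the other 3 libraries or in the fit of 12 libraries. Between the Cal27 models, 1 gene was higher in ErlR, 5 were lower and 4 did not pass, where 23.2% of all genes were higher and 26.5% lower. These Cal27 counts hold SLCO2A1 among those that fell in both models and HPGD among those lower in ErlR, each let in by its high group. Without both genes, 3 rose and 3 fell among 8 in AfaR, 1 rose and 4 fell in ErlR, and 1 was higher and 4 lower between the models. Both Cal27 comparisons used the same parental libraries, as did both FaDu ones. With 1 library left out, calls over all genes also fell in number in each comparison. The losses of calls given here are thus not particular to the 10 genes.

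**Figure D3:**
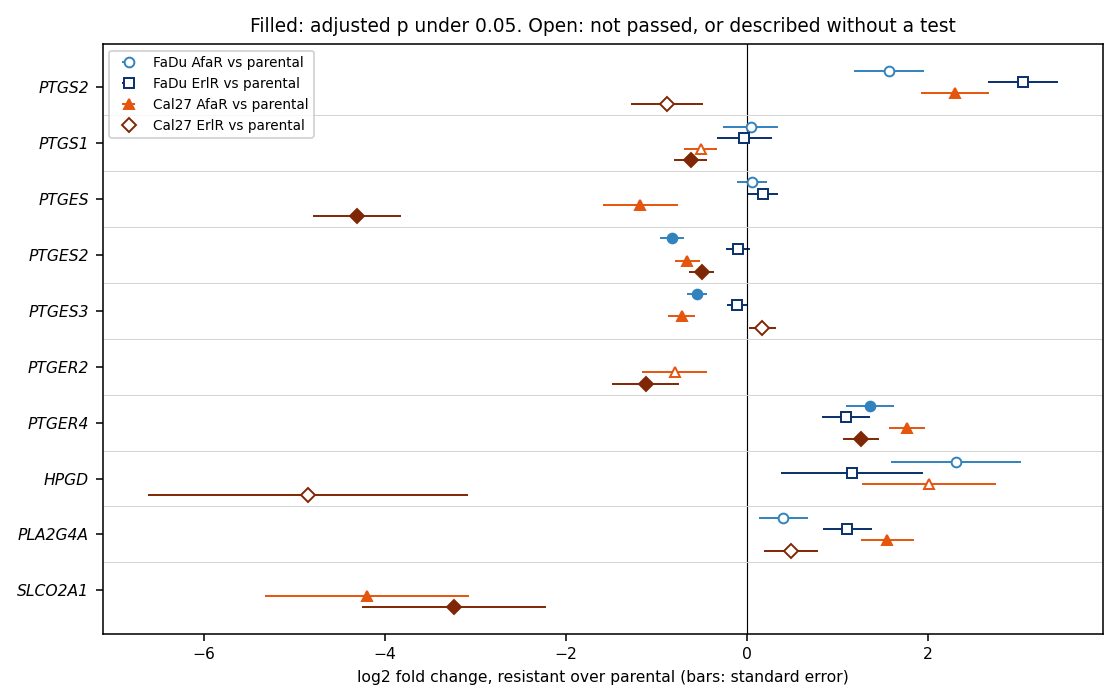
Log2 fold change of each gene (rows) in the 4 resistant models against their parental cells, with standard errors as bars; filled symbols passed at an adjusted p under 0.05, and open ones did not or were described without a test. PTGER4 lies to the right of 0 in all 4 models, and PTGES in Cal27 ErlR lies at -4.31. PTGER2 and SLCO2A1 have no FaDu symbols because their counts were too low for that fit, and the filled SLCO2A1 symbols in Cal27 belong to a gene let in by its high group alone.

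The untreated lines differed in 5 of the 9 genes tested, 4 of them higher in Cal27 and 1 lower, where 28.7% of 16240 genes were higher and 26.8% lower. By the study's methods FaDu was grown in EMEM and Cal27 in DMEM with GlutaMAX. The FaDu parental libraries were also deeper, with a larger share of spike-ins. Line, medium and this difference between the libraries cannot be told apart here. PTGER2, counted among the 4, was at 6.63 and 7.05 CPM in Cal27 and at 0.244 and 0.470 in FaDu. It stood 4.24 ± 0.552 higher in Cal27 on the log2 scale, a fold of 18.9. PTGER2 was too low for the FaDu fit and entered this one through Cal27 libraries alone, where it was high, so no test is given. Without PTGER2 the calls left are those on PTGES, PTGES2 and PTGER4, higher in Cal27, and on PTGES3, lower. PTGES was higher by 2.17 ± 0.381 (edgeR adjusted p = 0.000399), PTGES2 by 1.56 ± 0.136 (edgeR adjusted p = 1.5e-06) and PTGER4 by 1.05 ± 0.219 (edgeR adjusted p = 0.00141). The calls on PTGES, PTGES2 and PTGER4 held in all 10 other settings, PTGES at 1.17 without Cal27 parental replicate 2. PTGES3 was lower by a log2 fold change of -0.61 ± 0.130 (edgeR adjusted p = 0.00153), but by only -0.04 under spike-in scaling (edgeR adjusted p = 0.854), which moved the median of all genes to 0.62. PTGS2 stood 2.77 ± 0.466 higher in Cal27, given without a test.

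Of 9 genes tested, 1 changed differently in the AfaR models of the 2 lines, with the higher change in FaDu, where 10.5% of all genes did so and 8.00% had the higher change in Cal27. That gene was SLCO2A1, whose change in FaDu AfaR exceeded the one in Cal27 AfaR by a log2 difference of 6.51 ± 1.58 (edgeR interaction, adjusted p = 0.013). It rested on few counts, 0 to 12 in Cal27 and 1 to 25 in FaDu parental and AfaR cells, and SLCO2A1 entered the fit through FaDu AfaR and Cal27 parental libraries alone, the groups where it was high, so the test is no support. It was lost without FaDu parental replicate 1 (edgeR adjusted p = 0.0551), FaDu AfaR replicate 2 (0.0841) or Cal27 AfaR replicate 1 (0.0621). PLA2G4A came next, with a smaller change in FaDu that did not pass (log2 difference -1.13 ± 0.388, edgeR adjusted p = 0.0611). For PTGER4 the difference was -0.39 ± 0.295 (edgeR adjusted p = 0.404).

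The genes around PTGS2 were looked at along chromosome 1. ODR4, the nearest tested gene on the other side, had log2 fold changes of -0.23 in the AfaR model of FaDu and -0.04 in its ErlR model, and of 0.08 and 0.34 in those of Cal27. TPR, one gene further, ran from -0.48 to 0.14 over the 4 models. PTGS2 and PLA2G4A thus stood above their neighbours on that side in FaDu AfaR, FaDu ErlR and Cal27 AfaR. RGS2, the fourth tested gene on the side of PLA2G4A, ran from -0.63 to 0.52. On the same side an unnamed gene (ENSG00000232498, a mean of 0.620 CPM, 5840 kb from PTGS2) had the sign of PTGS2 in each model. Its log2 fold changes were 1.26 and 1.24 in the AfaR and ErlR models of FaDu, and 1.52 and -1.27 in those of Cal27. The pseudogene RPS27AP5 ran from -1.71 to -0.09 and UCHL5 from -0.87 to 0.15.

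**Figure D4:**
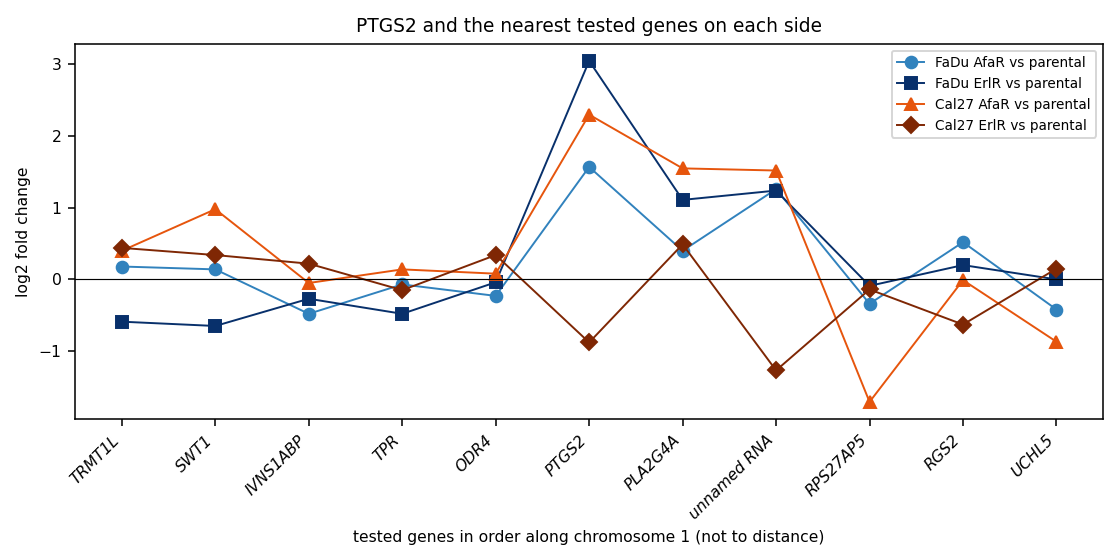
Log2 fold change (vertical axis) of PTGS2 and the 5 nearest tested genes on each side, in their order along the chromosome but not to distance, in the 4 resistant models. PTGS2 reached 3.05 in FaDu ErlR and 2.30 in Cal27 AfaR, whereas ODR4 beside it lay between -0.23 and 0.34.

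The genes most like PTGS2 over the 12 libraries were found by Pearson correlation of log2(CPM + 1) among 10567 genes that averaged 5 CPM or more. They were SFXN3 (r = 0.957), SERINC1 (0.955), MBD5 (0.947), MTFR1L (0.942) and FBXL17 (0.926). SFXN3, a mitochondrial serine carrier, was at 16.2 and 23.1 CPM in FaDu parental cells and at 56.5 and 50.8 in Cal27 AfaR. Of the other 9 genes, PLA2G4A (0.792) and PTGER4 (0.729) were the most alike and PTGES3 (-0.812) the most opposed. The 12 points share 6 groups and 2 lines, so these values are a description.

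The wider pathway was read from 83 further genes in 7 lists, which were drawn up with results of these data already known. In FaDu AfaR, 59 were tested, of which 5 rose and 3 fell (median log2 fold change 0.04, against -0.00 over all genes), where 10.4% and 7.49% of all genes did so. In Cal27 AfaR, 18 of 63 rose and 10 fell (median 0.18 against -0.00), beside 19.5% and 18.2% of all genes. In Cal27 ErlR, 6 of 63 rose and 12 fell (median -0.12 against -0.03), beside 12.3% and 15.3%. These counts came down to 1 in FaDu AfaR without parental replicate 1 or AfaR replicate 2 and to 3 without parental replicate 2, from 28 to 16 in Cal27 AfaR without AfaR replicate 1, and from 18 to 11 in Cal27 ErlR without parental replicate 2. Calls over all genes fell in number in each of those fits too. PTGFR and PLA2G4E are counted in Cal27 although each entered the fit through 1 group alone. Without them 17 rose and 9 fell among 61 in AfaR, and 6 rose and 11 fell in ErlR. In FaDu ErlR the median was -0.06, without a test.

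**Figure D5:**
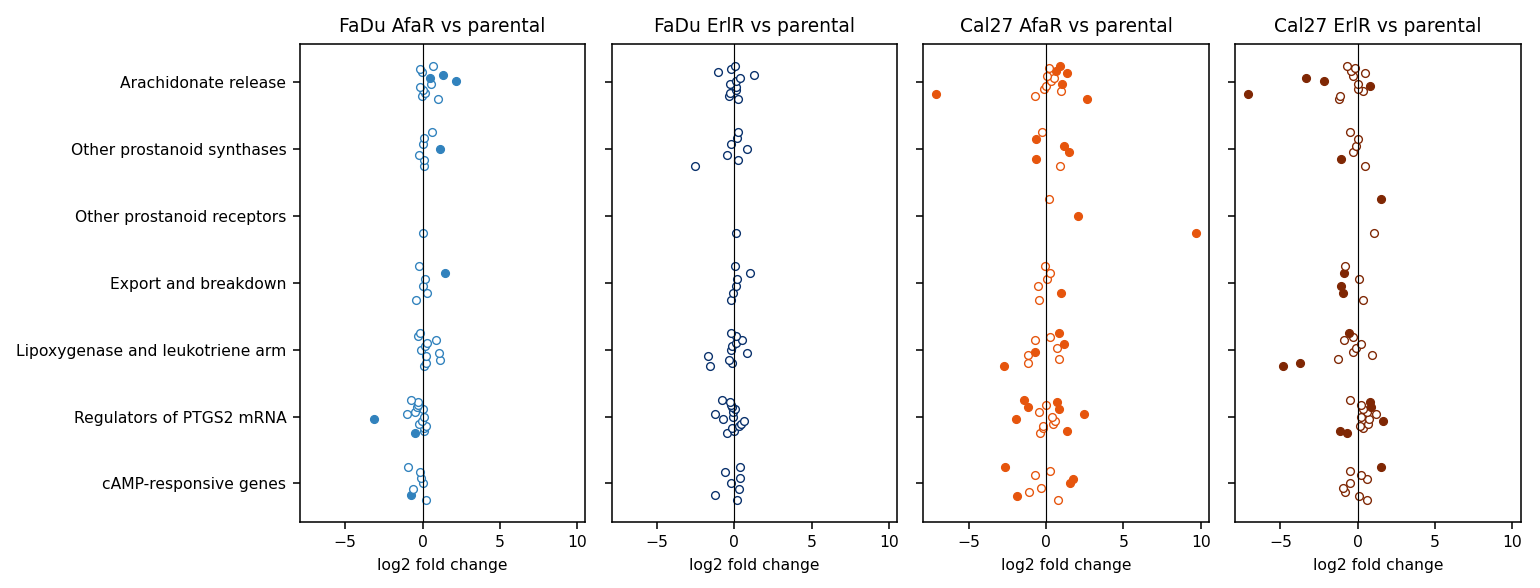
Log2 fold change (horizontal axis) of every gene of the 7 wider lists (rows) that was abundant enough, in the 4 resistant models (panels), with filled points for an adjusted p under 0.05 and FaDu ErlR shown without a test. The points farthest from 0 are PTGFR at 9.68 among the receptors in Cal27 AfaR and PLA2G4E at -7.09 among the arachidonate-releasing genes in Cal27 AfaR and Cal27 ErlR, fitted values against groups at 0 counts that depend on the prior count.

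Arachidonate release was measured by 20 genes. In Cal27 AfaR 5 of 14 tested rose and 1 fell, beside 19.5% and 18.2% of all genes, and the rises included MGLL, which frees arachidonate from a monoglyceride (1.33 ± 0.216, edgeR adjusted p = 0.00139), and the lysosomal phospholipase PLA2G15 (1.00 ± 0.173, edgeR adjusted p = 0.00189), both passing in all 12 other settings. MGLL also rose in FaDu AfaR (1.34 ± 0.308, edgeR adjusted p = 0.0206), where 3 of 12 rose, beside 10.4% of all genes. Its call was lost without FaDu parental replicate 1 (log2 fold change 1.04) or AfaR replicate 2 (0.89). ANXA1, an annexin known to restrain phospholipase A2, rose there by 0.45 ± 0.119 (edgeR adjusted p = 0.0318), a call lost without either parental replicate (0.166 and 0.187) or AfaR replicate 2 (0.135). FAAH (0.87 ± 0.253, edgeR adjusted p = 0.0232) and DAGLA (0.63 ± 0.212, edgeR adjusted p = 0.0404), which break down and make endocannabinoids, rose in Cal27 AfaR, but each lost its call without any of 3 of the 4 libraries. In Cal27 ErlR 1 of 14 rose and 3 fell, beside 12.3% and 15.3% of all genes. PLA2G4E, counted among the falls in both Cal27 models, entered the fit through the parental libraries alone, the group where it was high. Without it 5 rose and 0 fell among 13 in Cal27 AfaR, and 1 rose and 2 fell in Cal27 ErlR. PLAAT4 went from 8.16 and 21.7 CPM in parental cells to 0.842 and 2.13 (-3.33 ± 0.516, edgeR adjusted p = 0.00196), and PLAAT3 from 23.5 and 36.9 to 4.34 and 9.11 (-2.18 ± 0.332, edgeR adjusted p = 0.00182). Both are phospholipid-cutting acyltransferases, and both falls held in all 12 other settings, PLAAT4 at -2.44 without parental replicate 2 and -4.14 without ErlR replicate 2, and PLAAT3 at -2.80 without ErlR replicate 2. In FaDu AfaR PLAAT4 was higher (2.17 ± 0.590, edgeR adjusted p = 0.0353), a call lost with the replicate block (0.0502) and without parental replicate 1 (0.21), parental replicate 2 (0.0737) or AfaR replicate 2 (1.23, 0.254). The rise was that of PLA2G12A, a secreted phospholipase (0.76 ± 0.164, edgeR adjusted p = 0.00876), lost without parental replicate 2 (0.0576).

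Of the 9 other prostanoid synthases, 2 of 6 tested rose and 2 fell in Cal27 AfaR, beside 19.5% and 18.2% of all genes. AKR1C3, which makes prostaglandin F2 alpha, went from 3.58 and 3.76 CPM to 9.59 and 10.6 (1.48 ± 0.309, edgeR adjusted p = 0.00501) and passed in all 12 other settings. It was also the 1 of 7 that rose in FaDu AfaR (1.15 ± 0.242, edgeR adjusted p = 0.0155), beside 10.4% of all genes. That call was lost without FaDu parental replicate 1 (log2 fold change 1.01), parental replicate 2 (1.29) or AfaR replicate 2 (1.08). The AKR1C genes are near-identical copies, so their reads may be divided wrongly. AKR1B1, another prostaglandin F synthase, rose in Cal27 AfaR by 1.19 ± 0.267 (edgeR adjusted p = 0.00733), lost without AfaR replicate 2 (0.0598). The 2 that fell were PRXL2B (-0.68 ± 0.158, edgeR adjusted p = 0.00813), lost without parental replicate 2 (0.0604) or AfaR replicate 1 (0.0681), and CBR1 (-0.62 ± 0.139, edgeR adjusted p = 0.0069), lost without parental replicate 1 (0.0614) or AfaR replicate 1 (0.0643). In Cal27 ErlR 1 of 6 fell, beside 15.3% of all genes: PRXL2B (-1.11 ± 0.160, edgeR adjusted p = 0.00147).

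Of the 8 other receptors and receptor-linked genes, 1 was tested in FaDu and 3 in Cal27. There 2 rose in AfaR, among them PTGFR through its high group alone, beside 19.5% of all genes. In Cal27 ErlR 1 rose, beside 12.3% of all genes. Without PTGFR, 1 of 2 rose in each Cal27 model. The rise in Cal27 ErlR was PTGFRN, a membrane protein named for binding the prostaglandin F receptor. It went from 282 and 272 CPM to 790 and 809 (1.51 ± 0.130, edgeR adjusted p = 0.000107) and held in all 12 other settings. Among the 6 genes of export and breakdown, 1 rose in Cal27 AfaR, beside 19.5% of all genes, and 3 fell in Cal27 ErlR, beside 15.3%. PTGR1, a prostaglandin reductase, was the one that rose in AfaR (0.99 ± 0.205, edgeR adjusted p = 0.00492) and one of those that fell in ErlR (-0.96 ± 0.211, edgeR adjusted p = 0.0098). The first call was lost without AfaR replicate 1 (0.0556) and the second without ErlR replicate 1 (0.0514). PTGR2 fell as well in Cal27 ErlR (-1.07 ± 0.292, edgeR adjusted p = 0.0244), lost without parental replicate 2 (0.0931) or ErlR replicate 1 (0.132). The third was AKR1C1 (-0.92 ± 0.276, edgeR adjusted p = 0.0354), which held in 6 of 12 other settings and was lost without parental replicate 2 (0.283), ErlR replicate 1 (0.0587) or ErlR replicate 2 (0.14). AKR1C1 rose in FaDu AfaR (1.47 ± 0.295, edgeR adjusted p = 0.0132), lost without FaDu parental replicate 1 (0.111).

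The lipoxygenase arm takes arachidonic acid to leukotrienes instead. ALOX5, its first enzyme, was at 14.8 and 14.3 CPM in Cal27 parental cells, 2.93 and 1.44 in AfaR and 0.583 and 0.425 in ErlR. It fell by 2.70 ± 0.338 on the log2 scale in Cal27 AfaR (edgeR adjusted p = 0.000333) and by 4.86 ± 0.414 in Cal27 ErlR (edgeR adjusted p = 0.000106), and both falls held in all 12 other settings, the first at -3.31 without AfaR replicate 1. In FaDu ALOX5 was at 0.128 to 0.537 CPM over the 6 libraries. LTA4H, which makes leukotriene B4, fell in Cal27 AfaR (-0.70 ± 0.136, edgeR adjusted p = 0.0036). Also in Cal27 AfaR, MGST3 (1.17 ± 0.191, edgeR adjusted p = 0.00145) and GPX4, which reduces lipid peroxides (0.85 ± 0.15, edgeR adjusted p = 0.00211), were the 2 of 10 tested that rose. With 2 that fell, these counts lie near the background, where 19.5% of all genes rose and 18.2% fell. In Cal27 ErlR 0 of 10 rose and 3 fell, beside 12.3% and 15.3% of all genes. GPX4 fell in Cal27 ErlR (-0.56 ± 0.15, edgeR adjusted p = 0.0234), lost without parental replicate 2 (0.159) or ErlR replicate 1 (0.171).

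Among 15 genes known to act on the PTGS2 gene or its mRNA, 2 fell in FaDu AfaR, 4 rose and 3 fell in Cal27 AfaR and 3 rose and 2 fell in Cal27 ErlR. Of all genes, 7.49% fell in FaDu AfaR, 19.5% rose and 18.2% fell in Cal27 AfaR, and in Cal27 ErlR 12.3% rose and 15.3% fell, so a count of 3 or 4 among 15 in Cal27 AfaR lies near the background. EGR1, an immediate early factor of growth factor signaling, fell in both AfaR models (-3.17 ± 0.675, edgeR adjusted p = 0.0161 in FaDu and -1.91 ± 0.504, edgeR adjusted p = 0.0151 in Cal27). EGR1 was at 124.2 and 699.2 CPM in the FaDu parental libraries and at 60.1 and 32.2 in FaDu AfaR, and the log2 fold change was -1.45 without parental replicate 2 and -3.95 without parental replicate 1. The FaDu call was lost without FaDu AfaR replicate 2 (-2.79, edgeR adjusted p = 0.11), and that in Cal27 without Cal27 AfaR replicate 1 (-1.31, edgeR adjusted p = 0.0916), against -2.93 without AfaR replicate 2. ZFP36L2, which speeds decay of AU-rich mRNAs, fell in Cal27 AfaR (-1.17 ± 0.169, edgeR adjusted p = 0.000735) and rose in Cal27 ErlR (0.84 ± 0.164, edgeR adjusted p = 0.00577), and its relative ZFP36L1 rose in Cal27 AfaR (0.86 ± 0.148, edgeR adjusted p = 0.00191). CEBPD, of the C/EBP family, rose in Cal27 AfaR (1.35 ± 0.337, edgeR adjusted p = 0.0119) and fell in Cal27 ErlR (-1.18 ± 0.353, edgeR adjusted p = 0.0347). The rise was lost without AfaR replicate 1 (edgeR adjusted p = 0.12), and the fall without parental replicate 2 (0.266) or ErlR replicate 1 (0.154). The CEBPD values ran from 0.90 without parental replicate 1 to 2.02 without parental replicate 2 in AfaR, and the fall was -0.49 without the latter. FOSL1, an AP-1 subunit, rose in Cal27 ErlR from a mean of 274.1 to 856.9 CPM (1.62 ± 0.314, edgeR adjusted p = 0.0054), as did TIA1 (0.81 ± 0.176, edgeR adjusted p = 0.00911), which represses translation of AU-rich mRNAs. TIA1 rose in Cal27 AfaR too (0.69 ± 0.175, edgeR adjusted p = 0.0132), a call lost without parental replicate 1 (0.0551) or AfaR replicate 1 (0.112). CEBPB fell in FaDu AfaR (-0.47 ± 0.142, edgeR adjusted p = 0.0491) but lost its call in 8 of 12 other settings, among them each one that left out a library (0.0963 to 0.266). It fell in Cal27 ErlR as well (-0.67 ± 0.156, edgeR adjusted p = 0.0123), lost without parental replicate 2 (0.132) or ErlR replicate 2 (0.0708).

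Of 9 genes known to respond to cyclic AMP, the signal of both EP receptors studied here, 1 of 7 fell in FaDu AfaR, 2 of 9 rose and 2 fell in Cal27 AfaR and 1 of 9 rose in Cal27 ErlR. Beside the 7.49%, 19.5%, 18.2% and 12.3% of all genes that did so, these counts lie near the background. AREG, which encodes the EGFR ligand amphiregulin, was at 36.6 and 25.4 CPM in Cal27 parental cells, 4.53 and 5.02 in AfaR and 116 and 58.2 in ErlR. It fell by 2.67 ± 0.329 on the log2 scale in AfaR (edgeR adjusted p = 0.000302) and rose by 1.47 ± 0.289 in ErlR (edgeR adjusted p = 0.00587), and each call held in all 12 other settings. PTGS2 and AREG were thus on opposite sides of parental cells in Cal27 AfaR. PDE4D, a phosphodiesterase that degrades cyclic AMP, rose in Cal27 AfaR (1.73 ± 0.255, edgeR adjusted p = 0.000818). NR4A1 fell in FaDu AfaR (-0.74 ± 0.191, edgeR adjusted p = 0.0303), a call lost under spike-in scaling (0.129), in a fit of 12 libraries (0.113) and without any one of its 4 libraries (0.0619 to 0.185). It fell in Cal27 AfaR too (-1.90 ± 0.429, edgeR adjusted p = 0.00737), lost without AfaR replicate 1 (0.0656).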

How the data were processed

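The authors trimmed paired reads of poly(A) RNA with Trimmomatic 0.36, aligned them to GRCh38 with STAR 2.5.2b and counted reads per gene with featureCounts of Subread 1.5.2, per the submitters' processing notes and the study's methods. The values used are the raw counts they deposited per library. The deposited normalized tables were not used. Of 58051 gene identifiers, 56948 had a symbol, and 92 spike-ins (3.859% to 5.824% of counts) were kept out of library sizes.

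The main test was the quasi-likelihood F test of edgeR 4.0.16, run in R 4.3.3 after TMM normalization and filterByExpr with Benjamini-Hochberg adjustment over all genes tested, in 1 fit of 6 libraries per line with 3 residual degrees of freedom, and in 1 fit of 12 libraries between lines. A gene passed at an adjusted p under 0.05. Biological variation between replicates came to 14.5% for FaDu and 15.3% for Cal27. DESeq2 1.42.0 was an alternative, with other scalings, filters and left-out libraries. Steps were tested on simulated data.

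Genes and lists were chosen with earlier results of these data known. FaDu ErlR values, and PTGS2 wherever FaDu parental libraries enter, are descriptions. Of each wider list, up to 4 passing genes that averaged 5 CPM or more in the line are named per comparison, those with the largest change. PTGFR and PLA2G4E, and calls on named genes in comparisons outside that rule, were added after their values were seen. Replicates are labelled biological, and where cultures were not separate p-values measure technical spread.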

Additional observations from a re-analysis of the deposited data

Results flagged for a closer look

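SLCO2A1 changed differently in the AfaR models of FaDu and Cal27, by a log2 difference of 6.51 (edgeR interaction, adjusted p = 0.013). The value came from 1 to 25 counts per library in FaDu and 0 to 12 in Cal27. The gene entered that fit through the groups where it was high, so the test is no support. The other 3 differences came up because both erlotinib-resistant libraries lay on opposite sides of their parental libraries in the 2 lines, and none was tested. For PTGES the FaDu minus Cal27 difference in log2 fold change was 4.49. For HPGD the difference was 6.01, a fitted value against 0 counts in both Cal27 ErlR libraries that depends on the prior count. With 3 counts over the group set in place of 0, HPGD in Cal27 ErlR was 2.18-fold lower than in parental cells, which had 7 counts. HPGD entered the Cal27 fit through the AfaR libraries alone. For PTGES3 the difference was -0.28, where FaDu ErlR stood at -0.11 and Cal27 ErlR at 0.17. The FaDu value for PTGES3 turned to 0.39 under spike-in scaling.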

How the results depend on the processing

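Of 28 calls on the 10 genes, 14 held in every setting run and 0 changed sign. Without the 3 on genes that entered the fit through 1 group alone, 13 of 25 held. The 25 still count SLCO2A1 in the AfaR difference and PTGER2 between parental lines, each let in by the groups where it was high. PTGER2 is among the 13. Spike-in scaling moved the median log2 fold change of all genes to 0.18 in FaDu AfaR, 0.49 in FaDu ErlR, 0.62 between parental lines and 0.18 in the AfaR difference. Under it, calls in FaDu AfaR were 2093 higher and 220 lower (1563 and 1131 by TMM), between parental lines 7917 and 1714 (4668 and 4354), and in the AfaR difference 1998 and 793 (1713 and 1300). It turned PTGES2 and PTGES3 in FaDu ErlR to 0.38 and 0.39 from -0.10 and -0.11. In FaDu AfaR, 1752 genes were higher and 690 lower by upper quartile, which moved the median between Cal27 models to -0.12. With 2 libraries a group, the loss of 1 decided many calls, and genes under about 1 CPM rest on few counts. Calls over all genes fell in number in every fit that left out 1 library. The cause of each change was not tested.

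Genes passing in Cal27 ErlR went from 6 to 3 in the fit of 12 libraries, and in the AfaR difference from 1 to 2 with no filter. With 1 library left out, genes passing ranged from 0 to 4 (3 with all) in FaDu AfaR, 4 to 6 (7) in Cal27 AfaR, 2 to 3 (6) in Cal27 ErlR, 4 to 5 (6) between Cal27 models, 5 to 5 between parental lines and 0 to 2 (1) in the AfaR difference. Wider list genes passing ranged from 1 to 7 (8) in FaDu AfaR, 16 to 25 (28) in Cal27 AfaR and 11 to 21 (18) in Cal27 ErlR. PTGS2 in FaDu ErlR ranged from 2.62 to 3.61.

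Signs turned only for values that did not pass. PTGS1 was 0.11 between parental lines under spike-in scaling, where PTGES2 in the AfaR difference was 0.00 and PTGER2 0.15, and PTGER2 was 0.01 there under upper quartile and with no filter.
With 1 library left out, ranges that crossed 0 were -0.21 to 0.33 for PTGS1 and -0.18 to 0.25 for PTGES in FaDu AfaR, and -1.43 to 0.08 for PTGS2 in Cal27 ErlR. Between Cal27 models they were -0.88 to 0.12 for PTGER2, -0.33 to 0.11 for PTGS1 and -2.29 to 3.24 for SLCO2A1, and between parental lines -1.55 to 0.45 for HPGD and -0.12 to 0.41 for PLA2G4A. In the AfaR difference they were -0.64 to 1.56 for HPGD, -1.87 to 0.71 for PTGER2 and -0.29 to 0.00 for PTGES2.

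The replicate block, with the numbers in the labels as a covariate, gave 4 genes passing in place of 6 in Cal27 ErlR, 5 in place of 6 between Cal27 models and the main count in FaDu AfaR (3), Cal27 AfaR (7), between parental lines (5) and in the AfaR difference (1). PTGER2 (adjusted p = 0.0649) and SLCO2A1 (0.0675) in Cal27 ErlR and PTGER4 between Cal27 models (0.0697) were the calls of the 10 genes lost with the block. Correlations of replicate differences between groups of a line ran from -0.32 to 0.21, so libraries with the same number did not deviate together throughout. With 2 libraries a group, this cannot decide whether some samples were paired.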

Other observations

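A pair of genes of the wider lists outside the rule for naming stood out after their values were seen. PTGFR, the receptor for prostaglandin F2 alpha, had 101 and 112 counts in the Cal27 AfaR libraries (5.38 and 6.46 CPM) and 0 in each Cal27 parental and ErlR library. With 3 counts over the group set in place of 0, Cal27 AfaR was 67-fold higher than parental cells. The counts of the higher group were taken as exact, so such a fold is no lower bound. FaDu libraries had 0 to 6 counts of PTGFR. PLA2G4E, a cytosolic phospholipase of the PLA2G4 family, had 13 and 21 counts in Cal27 parental cells and 0 in each Cal27 resistant library. Reckoned in the same way, Cal27 AfaR was 12-fold lower and Cal27 ErlR 10.6-fold lower. Each gene entered the Cal27 fit through the 1 group where it was high and was picked after its values were seen, so no test is given. FaDu libraries had 0 or 1 count of PLA2G4E. In the same Cal27 AfaR libraries the collagen gene COL1A1 was at 262 and 271.5 CPM and LUM at 42.3 and 24.1, against 25.6 and 35.7 and 0.176 and 0.0588 in parental cells, and their part in these results was not tested.

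PTGS2 and PTGES stood higher in replicate 2 than in replicate 1 of Cal27 parental cells, at 13.9 against 4.87 CPM and 167 against 55.8. PLAAT4 did so too, at 21.7 against 8.16. PTGER2, PTGER4 and PTGES2 lay close together in those libraries.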
